A study of Mus musculus with 36 samples.

Results

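The kinesin motor genes were followed through 36 RNA-seq libraries of mouse brain cells. Members were the protein-coding genes of the mm10 annotation whose symbol is Kif followed by a number and at most 1 letter from a to c and 1 further digit. This rule gave 38 genes. Of these, 37 were among the 25460 nuclear genes that received at least 1 transcript, and Kif28 received none. Kinesins whose symbols are built otherwise, such as Kifc2 and Cenpe, are not members.

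Each of 18 groups holds 2 libraries. A group is 1 of 6 populations (Neg and the lettered ones, A through E) from olfactory bulb, cortex or brainstem of C57/Bl6 mice. All groups share that strain, the label astrocyte and a total RNA preparation, and no age, genotype or treatment is given. The meaning of Neg and the way the populations were separated are not in the labels. Nor do these tell whether the 2 libraries of a group came from different animals, and the p-values rest on a library-to-library spread that could be technical alone. Values are FPKM, fragments scaled by transcript length and by the mapped fragments of the library, so levels of different genes are compared per length.

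Kinesins are motors that walk along microtubules and hydrolyse ATP to do so. In neurons and glia, kinesin-1 (the heavy chains KIF5A, KIF5B and KIF5C) and kinesin-3 (KIF1A, KIF1B and relatives) move mitochondria, vesicle precursors and RNA granules outward along processes. Kinesin-2 (KIF3A, KIF3B, KIF3C and KIF17) serves both vesicle transport and the building of cilia. KIF5B is made in most cell types, while KIF5A and KIF5C are known mainly from neurons. Another set of kinesins assembles the mitotic spindle and completes cytokinesis, and its genes are typically switched on in dividing cells.

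By these known roles the members were sorted into 15 transport, 11 mitotic, 6 ciliary and 6 other kinesins. Promoters are shown because transport and mitotic genes lay at very different levels. RefSeq promoters of GRCm38.p6 were matched by symbol for 31 of the 38 members, not for Kif5a, Kif5b, Kif20a, Kif13b, Kif19a, Kif21b or Kif28. The letters are the 250 bases before the start site, 5′ to 3′ on the strand of the gene. They are shown for a transport gene that differed between regions and for 3 mitotic genes. Capitals mark a TATA motif (TATAAA or its reverse complement TTTATA) in Kif5c, and in the mitotic genes the CCAAT box (CCAAT or ATTGG) and the CHR element (TTTGAA or TTCAAA), which are known from promoters of cell cycle genes.
Kif5c, chr2:49619036-49619285, plus strand: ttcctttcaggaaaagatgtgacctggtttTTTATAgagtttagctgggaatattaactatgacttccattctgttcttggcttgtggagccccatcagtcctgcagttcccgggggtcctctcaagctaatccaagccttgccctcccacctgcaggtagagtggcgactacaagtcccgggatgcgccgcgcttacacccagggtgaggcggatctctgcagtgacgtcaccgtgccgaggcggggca
Kif11, chr19:37376132-37376381, plus strand: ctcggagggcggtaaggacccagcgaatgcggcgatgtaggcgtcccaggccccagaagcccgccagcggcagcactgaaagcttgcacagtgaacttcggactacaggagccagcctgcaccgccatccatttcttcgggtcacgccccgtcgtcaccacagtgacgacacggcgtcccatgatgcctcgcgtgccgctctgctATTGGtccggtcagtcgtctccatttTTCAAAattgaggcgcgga
Kif22, chr7:127042421-127042670, minus strand: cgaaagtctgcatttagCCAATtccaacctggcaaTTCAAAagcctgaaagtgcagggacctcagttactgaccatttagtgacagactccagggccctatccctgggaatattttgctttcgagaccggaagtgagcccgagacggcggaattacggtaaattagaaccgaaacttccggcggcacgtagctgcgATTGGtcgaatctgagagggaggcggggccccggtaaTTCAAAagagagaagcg
Kif23, chr9:61946800-61947049, minus strand: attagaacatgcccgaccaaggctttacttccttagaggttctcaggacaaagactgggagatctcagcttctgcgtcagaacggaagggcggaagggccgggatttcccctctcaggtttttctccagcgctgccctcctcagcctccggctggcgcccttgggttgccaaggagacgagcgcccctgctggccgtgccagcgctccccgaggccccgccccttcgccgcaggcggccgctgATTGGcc

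In Kif11 the CCAAT box began 45 bases and the CHR letters 19 bases before the start site. Kif22 held 2 copies of each, the nearer ones beginning 54 and 17 bases before the start. In Kif23 a CCAAT box began 7 bases before it, and the CHR letters were not in the window. The TATA letters of Kif5c lay 220 bases before its start. Over the members with a promoter, the CHR letters on either strand were in 5 of 10 mitotic genes (Kif11, Kif14, Kif15, Kif22 and Kif2c) and 0 of 11 transport genes, against 14.2% of all 16522 promoters of this length. The CCAAT box was in 6 of 10 mitotic and 3 of 11 transport genes, against 36% of all promoters. The SP1 letters GGGCGG were in 6 of 10 and 7 of 11, against 44.3%, and the TATA letters in 1 of 10 and 1 of 11, against 11.9%. A match describes these letters only.

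Several libraries stood apart. In 8 of them fewer than 5000 genes reached 1 FPKM (2104 to 4281 genes): cortex Neg replicate 2, both brainstem Neg libraries, cortex A replicate 2, cortex D replicate 2, olfactory bulb E replicate 1 and both brainstem E libraries. Relative depth, read from coverage over FPKM, was 0.0695 in brainstem E replicate 1 and 0.3149 in olfactory bulb E replicate 1, and 1.163 to 4.0782 elsewhere. The libraries labelled brainstem D replicate 2 and cortex E replicate 2 had 17.5 and 18.4 FPKM of Gad1, a gene of GABA synthesis, which was at 7.66 to 40.1 FPKM in the olfactory bulb and at 0 to 3.83 FPKM in the other 22 cortex and brainstem libraries. Both kept their labels here. Summed over 11 astrocyte markers the level was 42.7 to 473 FPKM in Neg and 194 to 3540 FPKM in A to E, and all 11 were higher in A to E. The astrocyte label did not stand alone: 15 neuron markers summed to 57.8 to 783 FPKM and 8 oligodendrocyte markers to 722 to 13803 FPKM across all libraries. In such bulk samples, fewer cells of a type and less RNA per cell cannot be told apart.

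The 5 kinesin genes with the highest mean were all transport motors. Kif5a (chromosome 10, 127225696 to 127263348, GRCm38, minus strand) averaged 241 ± 259 FPKM (SD, n = 36), with a range from 13.6 in olfactory bulb B replicate 1 to 1112 in cortex Neg replicate 1. Kif5b (chromosome 18, 6201002 to 6242174, minus strand) averaged 81.3 ± 56.4 FPKM (SD, n = 36) and reached 229. Kif1a (chromosome 1, 93015464 to 93101951, minus strand), the motor of synaptic vesicle precursors, averaged 67.7 ± 32.5 FPKM (SD, n = 36). Kif1b, which carries mitochondria and vesicle precursors as different isoforms, averaged 45.9 ± 21.4 FPKM (SD, n = 36). Kif5c (chromosome 2, 49619298 to 49774778, plus strand) averaged 38.0 ± 39.1 FPKM (SD, n = 36) and ranged from 2.76 to 186. These 5 genes were above 1 FPKM in all 36 libraries, and Kif5a ranked between the 3rd and the 71st most abundant gene in cortex libraries.

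The remaining transport motors were far lower. Kif1c, a widely made kinesin-3, averaged 9.36 FPKM, and Kif21a and Kif21b, which act on microtubule growth as well as transport, averaged 7.03 and 4.03 FPKM. Kif13a and Kif13b, kinesin-3 motors of membrane vesicles, averaged 4.86 and 2.95 FPKM. Of the kinesin-2 subunits, Kif3a averaged 4.08, Kif3b 3.03 and Kif3c 2.54 FPKM. Kif16b, an endosome motor, averaged 0.839 FPKM and Kif17, a dendritic kinesin-2, 0.193 FPKM, with 1 library at 1 FPKM or more. The transport group as a whole had 446 of its 540 values at 1 FPKM or more, against 6 of 396 in the mitotic group and 30 of 216 in the ciliary group.

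**Figure D1:**
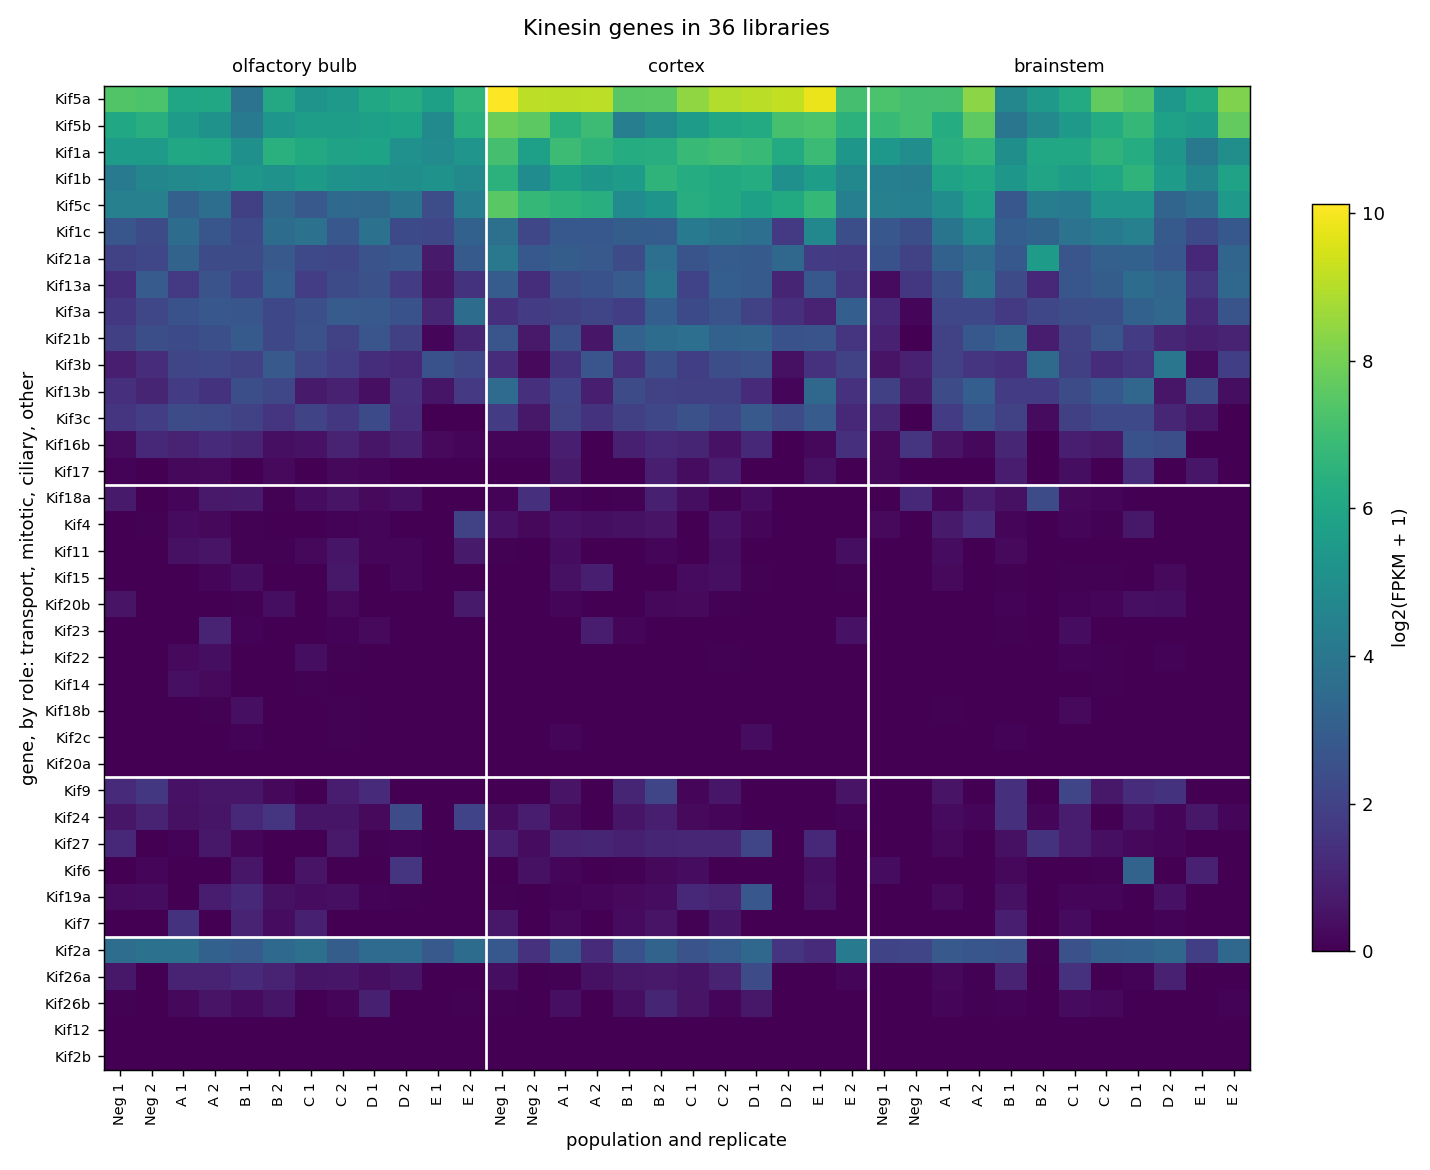
Level of each of the 37 kinesin genes with a transcript in each of the 36 libraries, as log2(FPKM + 1) by colour, with rows in order of role (transport, mitotic, ciliary, other, divided by white lines) and columns by region, population and replicate. Kif5a, Kif5b, Kif1a, Kif1b and Kif5c fill the bright rows at the top, with Kif5a brightest in cortex, while most of the mitotic rows stay at or near 0.

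Tests were limited to the 13574 genes that reached 1 FPKM in 2 libraries or more. Of the members 23 passed this filter: 14 of 15 transport genes (not Kif17), 2 of 11 mitotic (Kif18a and Kif4), 5 of 6 ciliary (not Kif7) and 2 of 6 other kinesins (Kif2a and Kif26a). Differences below are on the log2(FPKM + 1) scale with standard errors, which understates changes of low genes, and the adjusted p-values come from limma with Benjamini-Hochberg adjustment over all genes tested.

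Kif5a and Kif5c followed the region. Over the 10 lettered libraries of each region, Kif5a had a lowest, median and highest level of 138, 516 and 904 FPKM in cortex, 24.5, 106 and 326 FPKM in brainstem, and 13.6, 63.5 and 100 FPKM in olfactory bulb. The cortex and olfactory bulb libraries did not overlap, and 7 of 10 cortex libraries were above every brainstem library. The lowest cortex library was the one labelled cortex E replicate 2, and the next was cortex B replicate 1 at 180 FPKM. In Neg, Kif5a was at 1112 and 551 FPKM in cortex, 164 and 151 in olfactory bulb and 150 and 135 in brainstem. The log2 difference was -2.84 ± 0.38 for olfactory bulb minus cortex (adjusted p = 2.24e-05) and 1.92 ± 0.38 for cortex minus brainstem (adjusted p = 0.00389). Olfactory bulb minus brainstem was -0.92 ± 0.38 and did not pass (adjusted p = 0.17).

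Kif5c showed the same order. Its lowest, median and highest level was 19.7, 69.6 and 105 FPKM in cortex, 5.76, 24 and 55.0 FPKM in brainstem, and 2.76, 9.29 and 19.2 FPKM in olfactory bulb. Cortex and olfactory bulb again did not overlap, though the nearest libraries, cortex E replicate 2 and olfactory bulb E replicate 2, were close. The Neg libraries had 186 and 107 FPKM in cortex, 20.3 and 20.1 in olfactory bulb and 20.3 and 19.6 in brainstem. Olfactory bulb minus cortex was -2.61 ± 0.38 (adjusted p = 5.49e-05) and olfactory bulb minus brainstem -1.26 ± 0.38 (adjusted p = 0.0467), while cortex minus brainstem, 1.34 ± 0.38, did not pass (adjusted p = 0.0677). The olfactory bulb minus brainstem call was lost under 30 of 45 alternative settings (adjusted p from 0.0102 to 0.146), 25 of them single libraries left out, and its value stayed between -1.46 and -1.07.

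Kif5b and Kif1a were less tied to region. Kif5b had medians of 78.5 FPKM in cortex (19.0 to 150), 64.4 in brainstem (14.6 to 207) and 47.7 in olfactory bulb (16.5 to 81.8), and these ranges overlapped. Its differences were -0.69 ± 0.33 for olfactory bulb minus cortex (adjusted p = 0.307), -0.58 ± 0.33 for olfactory bulb minus brainstem (adjusted p = 0.346) and 0.11 ± 0.33 for cortex minus brainstem (adjusted p = 0.951). Kif1a had medians of 104 FPKM in cortex (39.8 to 128), 64.6 in brainstem (15.9 to 101) and 56.7 in olfactory bulb (28.4 to 85.2). Its differences did not pass either, at -0.86 ± 0.31 for olfactory bulb minus cortex (adjusted p = 0.136), -0.07 ± 0.31 for olfactory bulb minus brainstem (adjusted p = 0.926) and 0.78 ± 0.31 for cortex minus brainstem (adjusted p = 0.288). Kif1b was at medians of 51.3, 56.2 and 33.6 FPKM in cortex, brainstem and olfactory bulb, with no call.

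In counts, 2 of 23 tested members were called lower in olfactory bulb than in cortex, where 3.74% of all genes tested were called (3.08% higher and 0.656% lower), 1 was lower in olfactory bulb than in brainstem (5.19% of all genes, 4.19% higher and 1.00% lower) and 1 was higher in cortex than in brainstem (1.75% of all genes, 1.27% higher and 0.486% lower). The 3 comparisons share their libraries in pairs. The median over the 14 tested transport genes was -0.57, -0.56 and -0.04 in the same order, beside 0.14, 0.19 and 0.03 over all genes. Without the libraries labelled brainstem D replicate 2 and cortex E replicate 2, Kif5a was at -3.11 (adjusted p = 8.45e-07) and Kif5c at -2.84 (adjusted p = 5.02e-06) for olfactory bulb minus cortex, and 2 members were called in each of the comparisons with brainstem. The calls of Kif5a and Kif5c between olfactory bulb and cortex, and of Kif5a between cortex and brainstem, were kept under all 45 alternatives.

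**Figure D2:**
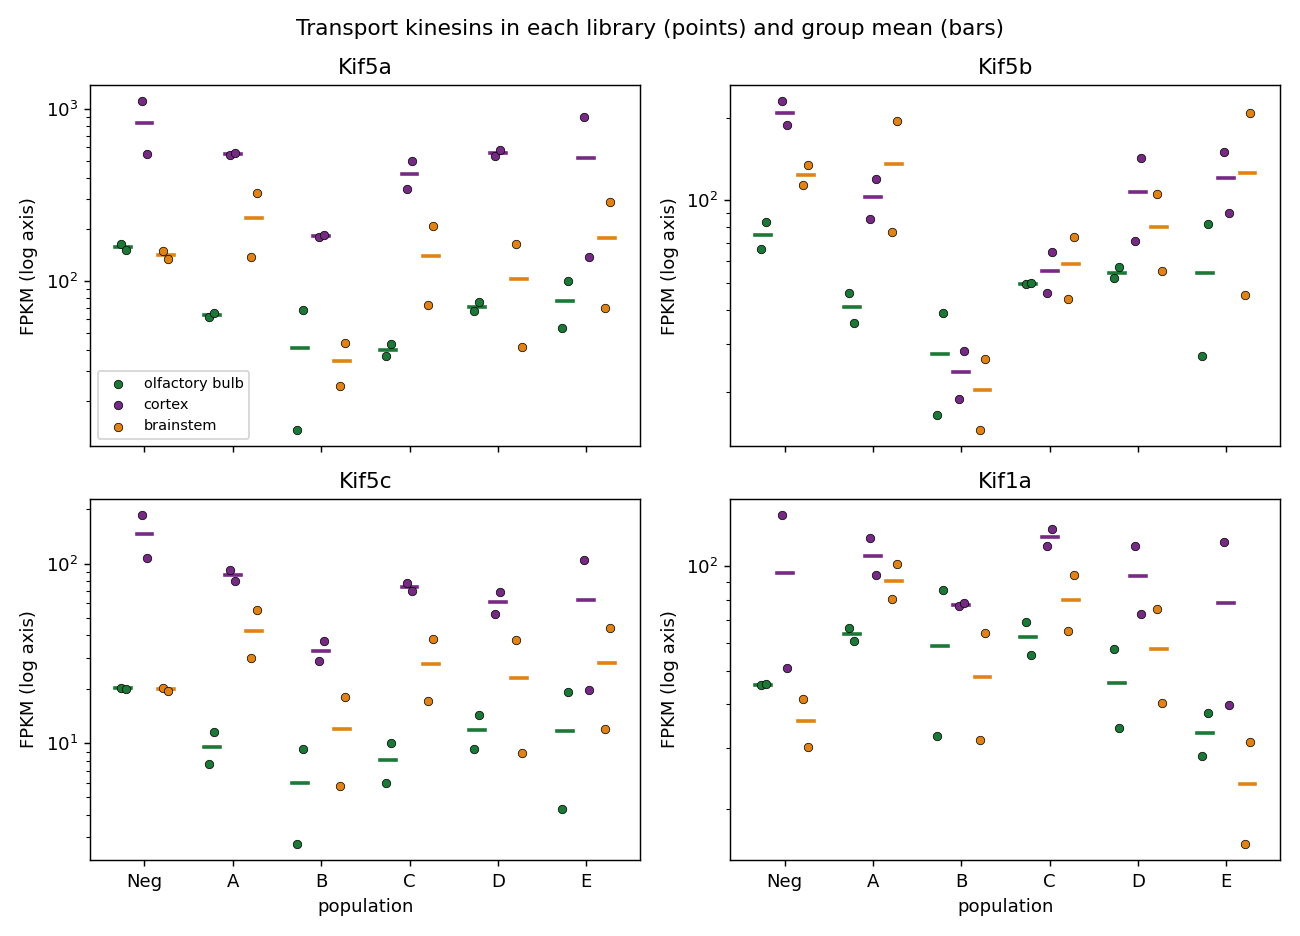
Kif5a, Kif5b, Kif5c and Kif1a in every library (points) by population on the x axis, in FPKM on a log axis, coloured by region, with a bar at the mean of the 2 libraries of a group. Cortex points lie above olfactory bulb points for Kif5a and Kif5c in each population, while the Kif5b points of population B, 14.6 to 38.8 FPKM, lie low in all 3 regions.

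Markers of other cells moved with region too. Of the 15 neuron markers 9 were higher and 1 lower in olfactory bulb than in brainstem (median 1.39) and 5 did not pass, the lower one being the neurofilament gene Nefl at -1.55 ± 0.41. Between olfactory bulb and cortex 3 neuron markers were higher in olfactory bulb, among them Gad1 at 3.07 ± 0.42, and 1 was lower, Camk2a, a kinase of excitatory neurons, at -1.57 ± 0.38. Cortex exceeded brainstem in 6 neuron markers, Camk2a by 4.58 ± 0.38. The summed neuron markers had medians of 394, 484 and 184 FPKM in olfactory bulb, cortex and brainstem (150 to 744, 240 to 661 and 57.8 to 373). Oligodendrocyte markers were lower in olfactory bulb than in brainstem in 6 of 8, with summed medians of 1758 and 6352 FPKM. Of 7 neuroblast markers, 4 were higher in olfactory bulb than in cortex (median 1.35) and 3 than in brainstem (median 1.4), and 0 were lower. The 2 tested olfactory sensory neuron markers, Gng13 and Omp, were higher in olfactory bulb than in either. The part of these cells in the kinesin differences was not tested.

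The make-up of kinesin-1 was also read within each library, where scaling cancels. Kif5a held 55.7% to 81.1% of the summed Kif5a, Kif5b and Kif5c FPKM in the 12 cortex libraries, 39.8% to 65.4% in the 12 olfactory bulb libraries and 39.3% to 65.1% in the 12 brainstem libraries. Kif5b held 8.32% to 36.4%, 26.5% to 53.7% and 23.1% to 52.3%. Both extremes of overlap in cortex came from the library labelled cortex E replicate 2, without which Kif5a held 65.2% to 81.1% and Kif5b 8.32% to 22.2%. Kif5c held 5.08% to 20.6% over all libraries, with medians of 8.05%, 11.6% and 10.7% in olfactory bulb, cortex and brainstem. The log2 ratio of Kif5a to Kif5b averaged 2.48 ± 0.75 in cortex, 0.66 ± 0.47 in brainstem and 0.32 ± 0.49 in olfactory bulb (SD, n = 10 lettered libraries each).

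That ratio differed by -2.16 between olfactory bulb and cortex (two-sided permutation test with 100000 resamples, p = 0.00012, adjusted p = 0.0004 over a family of 5) and by 1.82 between cortex and brainstem (permutation p = 0.00016, adjusted p = 0.0004). It did not pass between olfactory bulb and brainstem, at -0.35 (permutation p = 0.125, adjusted p = 0.208), but did without the 2 libraries that carry olfactory bulb genes, at -0.47 (permutation, adjusted p = 0.041). Between populations the ratio did not pass either test. Libraries were shuffled across regions there, so the regional spread is part of these p-values (SD 1.35 in B and 1.08 in A, C, D and E). A population difference within regions was therefore not tested. B minus the mean of the A, C, D and E libraries was 0.22 (exact permutation test, n = 6 and 24, p = 0.681, adjusted p = 0.851), and A to E minus Neg was 0.09 (exact permutation test, n = 30 and 6, p = 0.863). The tests treat all libraries of a set alike and were chosen after the levels were seen. The deposited intervals were narrow beside these differences: the half-width for Kif5a was 4.21% to 12.3% of its value, widest in brainstem E replicate 1. The Kif5 genes are close paralogs, and how fragments that fit more than 1 of them were divided is not given.

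**Figure D3:**
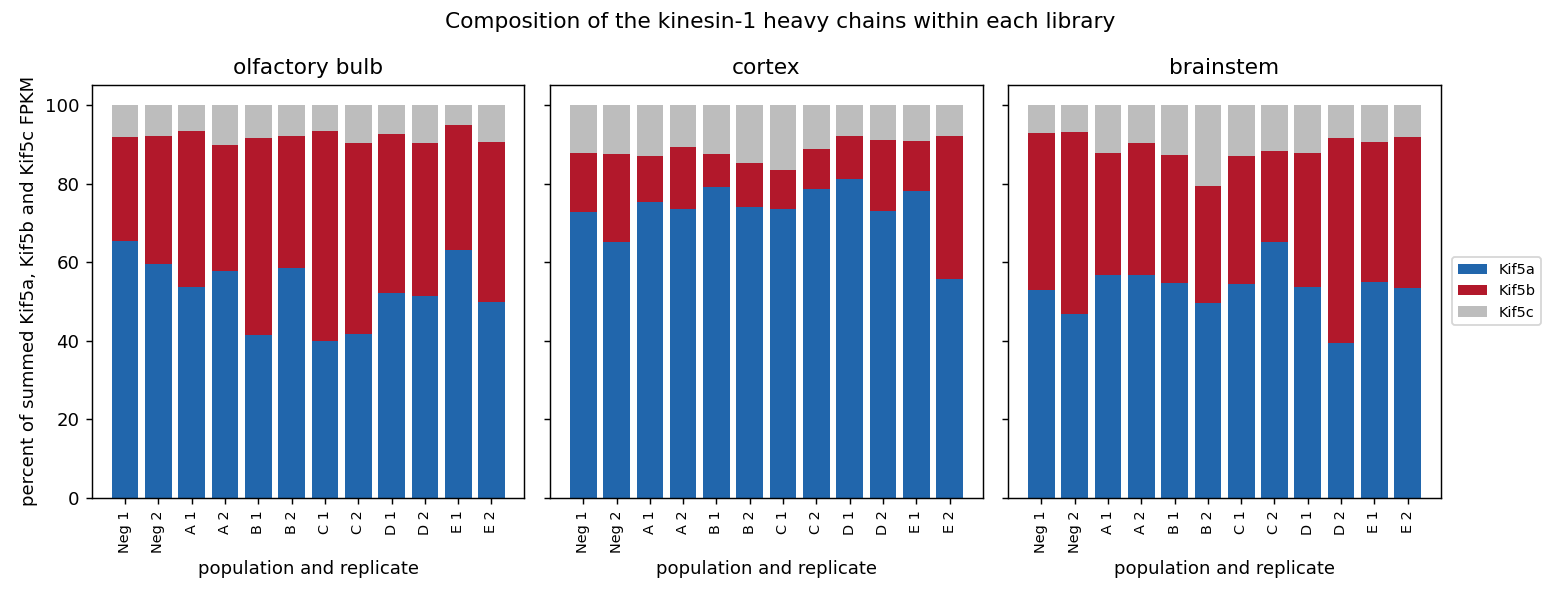
Percent of the summed kinesin-1 heavy chain FPKM that came from Kif5a, Kif5b and Kif5c in each library, as stacked bars from 0 to 100, by region, population and replicate. Kif5a takes 55.7% to 81.1% in cortex and 39.3% to 65.4% in the other regions, and cortex E replicate 2 is the cortex bar that resembles those of the olfactory bulb.

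Against Neg, Kif5b was lower in the lettered populations under every scaling tried, and a pair of kinesin-2 subunits was higher on the deposited scale alone. Kif5b had a lowest, median and highest level of 66.3, 124 and 229 FPKM in Neg (n = 6) and 14.6, 53.5 and 207 in A to E (n = 30). Of the A to E libraries 18 were below every Neg library, and the sets overlapped. The difference was -1.11 ± 0.33 (adjusted p = 0.0201). Kif3a was at 0.0946, 1.86 and 3.45 FPKM in Neg and 1.02, 4.3 and 10.9 in A to E, with 21 of 30 libraries above every Neg library, a difference of 0.97 ± 0.33 (adjusted p = 0.0369). Kif3b was at 0.211, 0.860 and 1.45 FPKM in Neg and 0.266, 2.8 and 14.9 in A to E, with 27 of 30 above every Neg library, a difference of 1.08 ± 0.36 (adjusted p = 0.0329).

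KIF3A and KIF3B form the motor of heterotrimeric kinesin-2 together. Kifap3, which encodes the third subunit of that complex, was at 0 to 11.4 FPKM over all libraries and was not called. Kif5a (-1.03 ± 0.38, adjusted p = 0.0515) and Kif5c (-0.79 ± 0.38, adjusted p = 0.122) had the same sign as Kif5b and did not pass, and Kif1a was at 0.26 ± 0.31 (adjusted p = 0.509). Thus 3 of 23 members were called, where 20.4% of all genes were called (20.2% higher and 0.140% lower). The median was 0.16 over the tested members and 0.50 over all genes.

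The calls against Neg rested on few libraries. Kif5b was not called without olfactory bulb Neg replicate 1 (adjusted p = 0.0511), olfactory bulb Neg replicate 2 (0.0696), cortex Neg replicate 2 (0.0675), brainstem Neg replicate 2 (0.0763) or the 8 libraries with fewer than 5000 genes (0.0758), while its value ranged from -2.29 to -1.04 over 45 alternatives. Kif3a and Kif3b lost their calls without either olfactory bulb Neg library, cortex Neg replicate 2 or brainstem Neg replicate 2, Kif3a also without cortex Neg replicate 1 and Kif3b without brainstem Neg replicate 1 (adjusted p from 0.0655 to 0.163). The titles number the libraries in 2 series, and the second holds 15 libraries, all of D and E and 3 others. All Neg libraries are in the first series. With that numbering as a term Kif3a was at 0.86 (adjusted p = 0.131) and Kif3b at 0.60 (adjusted p = 0.303). Kif5b was then at -1.55 (adjusted p = 0.0122), and limma also called Kif5a (-1.38, adjusted p = 0.0433) and Kif21b (1.29, adjusted p = 0.0309). Kif5a passed too with a pseudocount of 0.1 (adjusted p = 0.0452) and with array weights (adjusted p = 0.0108).

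Scaling mattered more. The summed nuclear FPKM of a library was 24130 to 63064 in Neg and 23005 to 70447 in E. It was 37453 to 119524 in A, 109895 to 139691 in B, 87398 to 163132 in C and 41324 to 148661 in D. Differences on the deposited scale, against Neg and between lettered populations, were taken across these unequal totals. With each library rescaled to the same total, members called were 0 higher and 4 lower in place of 2 higher and 1 lower. Quantile normalization gave the same split. The 4 were Kif5b (-2.29, adjusted p = 8.61e-05), Kif5a (-2.21, adjusted p = 0.000441), Kif5c (-2.0, adjusted p = 0.00328) and Kif1a (-0.90, adjusted p = 0.043), the last with its sign turned from the deposited scale. Kif3a and Kif3b were then at 0.47 and 0.66 (adjusted p = 0.628 and 0.517), and after quantile normalization at 0.03 and 0.22 (adjusted p = 0.966 and 0.773). The median over all genes moved from 0.50 to 0.38 with rescaling and to 0.00 with quantile normalization. The sign of Kif5a, Kif5b and Kif5c against Neg was the same under the 3 scalings, and that of Kif1a was not.

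Markers moved with these values too, on the deposited scale, where 20.2% of all genes were called higher and 0.140% lower. They were not set beside the other scalings here. Camk2a was the only neuron marker of 15 called against Neg, at -1.07 ± 0.38, and of 8 oligodendrocyte markers Mobp was lower and Cnp higher. Besides all 11 astrocyte markers, 3 of 6 endothelial, 2 of 6 oligodendrocyte precursor, 1 of 10 microglial and 1 of 7 neuroblast markers were higher. Their part in these differences was not tested.

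Population B had the lowest medians of Kif5b and Kif5a. Kif5b was at 16.5 and 38.8 FPKM in olfactory bulb B, 19.0 and 28.3 in cortex B and 14.6 and 26.4 in brainstem B, against a lowest, median and highest level of 27.1, 68.2 and 207 FPKM in the 24 libraries of A, C, D and E. Of the 6 B libraries 4 were below every other lettered library and 6 were below their median. The difference was -1.62 ± 0.34 (adjusted p = 0.00124). Kif5a was at 13.6 and 67.6 FPKM in olfactory bulb B, 180 and 185 in cortex B and 24.5 and 43.8 in brainstem B, against 36.6, 138 and 904 FPKM in the others. These sets overlapped, with 2 of 6 B libraries below every other lettered library. B had the lowest group mean in cortex (183) and brainstem (34.1), and in olfactory bulb it was next to C (40.6 and 39.7). The difference was -1.42 ± 0.39 (adjusted p = 0.0122).

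Other transport motors were not called in B on the deposited scale. Kif5c, at 2.76 to 36.9 FPKM, had a difference of -0.99 ± 0.39 that did not pass (adjusted p = 0.0807), but did after rescaling (-1.65, adjusted p = 0.0118) and quantile normalization (-1.55, adjusted p = 0.00576). Kif1a was at -0.15 ± 0.31 (adjusted p = 0.791), and Kif1b reached its highest level of all libraries, 95.3 FPKM, in cortex B replicate 2. In all 2 of 23 members were called in B, both lower, where the share called among all genes was 15.7% (15.4% higher and 0.361% lower). The median was 0.10 over the members and 0.35 over all genes. Without olfactory bulb B replicate 1 the Kif5a difference was -1.05 (adjusted p = 0.113), and without brainstem B replicate 1 the count of members called was 4. With the numbering series as a term, Kif5b was at -1.25 (adjusted p = 0.0734) and Kif5a at -1.13 (adjusted p = 0.201), so neither call was kept, and Kif18a was called higher in their place (0.90, adjusted p = 0.0363). Kif18a was at 3.97 FPKM in brainstem B replicate 2, the only B library of the second series. It was at 0.0487 to 0.867 FPKM in the other B libraries.

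B also differed in markers of several cell types on the deposited scale, where 15.4% of all genes were called higher and 0.361% lower. All 10 microglial markers were higher, with summed levels of 695 to 1155 FPKM in B and 8.47 to 498 in A, C, D and E, and 4 of 15 neuron markers were lower, among them Celf4 (-1.56 ± 0.41) and the synaptic gene Snap25 (-1.45 ± 0.35). Also higher in B were 5 of 11 astrocyte, 3 of 6 oligodendrocyte precursor and 3 of 6 endothelial markers, and of 8 oligodendrocyte markers 3 were higher and 1 lower. Summed neuron markers were 57.8 to 393 FPKM in B and 67.6 to 744 in the other lettered libraries. The part of these cells in the Kif5a and Kif5b values was not tested.

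Population E was lower in 6 tested members, though low values were general there. Kif3c, the neuronal kinesin-2 subunit, was at 0 FPKM in both olfactory bulb E libraries, 6.56 and 1.26 in cortex E and 0.523 and 0 in brainstem E, against a median of 3.11 FPKM in A to D (0.212 to 6.16), a difference of -1.17 ± 0.31 (adjusted p = 0.00491). Of the 6 E libraries 5 were below the median of A to D, and cortex E replicate 1 was above all of these. Kif21b was at 0.117 to 5.20 FPKM with a median of 1.04, against 4.6 (0.545 to 11.8), a difference of -1.19 ± 0.35 (adjusted p = 0.00982). Kif21a was at 0.666 to 8.98 FPKM with a median of 2.35, against 6.13 (3.47 to 47.0), a difference of -1.03 ± 0.37 (adjusted p = 0.0283). Kif1a was at 28.4 and 37.8 FPKM in olfactory bulb E, 117 and 39.8 in cortex E and 15.9 and 31.2 in brainstem E, against a median of 73.9 (31.6 to 128), a difference of -0.91 ± 0.31 (adjusted p = 0.0226). For Kif1a too the sets overlapped, with 3 E libraries below every library of A to D and cortex E replicate 1 near the top. Kif26a, which encodes a kinesin without motor activity, and Kif9, a motor of motile cilia, were at 0 in 5 of 6 E libraries, with differences of -0.64 ± 0.24 (adjusted p = 0.0334) and -0.57 ± 0.23 (adjusted p = 0.049).

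No kinesin-1 gene was called in E on the deposited scale. Kif5a, Kif5b and Kif5c were at 0.36 ± 0.39, 0.63 ± 0.34 and -0.03 ± 0.39 in E minus the other lettered populations (adjusted p = 0.436, 0.119 and 0.957). The 6 of 23 members called lower in E stand beside 42.6% of all genes called (0.103% higher and 42.5% lower), and their median of -0.38 over the tested members beside -0.66 over all genes. After rescaling, 4 members were higher and 2 lower (Kif26a and Kif3c), the higher ones being Kif5b (1.83, adjusted p = 0.000541), Kif5a (1.55, adjusted p = 0.00417), Kif5c (1.16, adjusted p = 0.0364) and Kif1b (0.71, adjusted p = 0.0497). Quantile normalization gave 3 higher (Kif5a, Kif5b and Kif2a) and 0 lower. All genes together had a median of -0.98 after rescaling and 0.06 after quantile normalization. The calls of kinesin-1 genes in E thus differed with the scale, and so did the sign of Kif1a, which was 0.25 after rescaling and 0.11 after quantile normalization. Transcript choice moved values as well. On the deposited scale with the highest transcript only, limma called Kif1b lower in E (-2.49, adjusted p = 0.000765), against its higher value after rescaling. Kif1a was then at -2.67 (adjusted p = 0.0022) and Kif3a at -1.43 (adjusted p = 0.00948).

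Single libraries also moved calls in E past the threshold. The call of Kif1a was lost without olfactory bulb E replicate 1, cortex E replicate 2 or brainstem E replicate 1 (adjusted p from 0.0669 to 0.118). That of Kif21a was lost without olfactory bulb E replicate 1, either cortex E library or brainstem E replicate 1 (adjusted p from 0.0541 to 0.187) and that of Kif26a without any 1 of the 6 (0.0541 to 0.0839), though its value stayed between -0.66 and -0.61. The call of Kif9 was lost under 32 of 45 alternatives. Without the 8 libraries with fewer than 5000 genes, 3 of which are E libraries, 0 of these 6 calls were kept (adjusted p from 0.0834 to 0.528) and 1 other member, Kif4, was called higher (0.78, adjusted p = 0.0249), and the E libraries include the 2 of lowest depth. Of the E libraries left by that removal, Kif4 was at 3.04 FPKM in olfactory bulb E replicate 2 and 0 in both from cortex. Its higher value thus rested on olfactory bulb E replicate 2. With the numbering series as a term, 0 members were called in E. All of D and E are in the second series, so only the groups split between the series inform that term. With it Kif21a moved from -1.03 to -1.68 and Kif9 from -0.57 to -0.05. Markers were lower in E as well on the deposited scale, where 42.5% of all genes were called lower. These were 10 of 11 for astrocytes (194 to 1069 FPKM summed), 10 of 10 for microglia (8.47 to 49.8 FPKM) and 2 of 15 for neurons (67.6 to 744 FPKM). Also lower were 5 of 6 endothelial, 5 of 6 oligodendrocyte precursor and 4 of 4 blood markers. So were 2 of 3 tested ependymal, 2 of 8 oligodendrocyte and 1 of 7 neuroblast markers. The part of these cells was not tested.

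Populations A, C and D had no called member. By limma 0 of 23 were called in A, 0 in C and 0 in D, with 0, 0 and 2 (Kif6 and Kif16b) at an unadjusted p under 0.05, against 0.00% of all genes in A, 7.61% in C (7.60% higher and 0.00737% lower) and 0.103% in D (0.0295% higher and 0.0737% lower). The highest Kif1a medians were in A and C, at 87.3 and 81.7 FPKM, and its differences there were 0.56 ± 0.31 (adjusted p = 0.999) and 0.54 ± 0.31 (adjusted p = 0.263). Kif5b was at medians of 81.1, 49.7 and 64.2 FPKM in A, C and D, and Kif5a at 232, 140 and 120. Kif6, a ciliary kinesin, reached 8.21 FPKM in brainstem D replicate 1 and 1.91 in olfactory bulb D replicate 2, and was at 0.887 or less in the other libraries. Kif16b was at 4.90 and 4.34 FPKM in both brainstem D libraries and at 1.84 or less elsewhere.

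Over all 6 populations at once, with Neg included, the F test called Kif5b (adjusted p = 0.00117), Kif5a (0.0126), Kif3c (0.0225) and Kif21b (0.0281). These 4 of 23 members stand beside 45.6% of all genes. Kif5b kept this call under all 45 alternatives, and Kif5a lost it without olfactory bulb B replicate 1 (adjusted p = 0.0679) and without the 8 libraries with few genes (0.129). Kif3c lost it in 6 of 45, after rescaling (0.146) and quantile normalization (0.362), with the highest transcript only (0.0741), without the 8 libraries (0.512) and without cortex E replicate 2 or brainstem E replicate 2 (0.0664 and 0.0602). Kif21b lost it in 14 of 45. Ordered by median, Kif5b ran from Neg (124 FPKM) through E (86.0), A (81.1), D (64.2) and C (49.7) to B (22.7), and the ranges of neighbours in this order overlapped, except that the highest B library (38.8) was below the lowest C library (43.9). No member was called for a population difference that depended on region, where limma called 0.0147% of all genes. The lowest adjusted p was 0.602 for Kif9, and 2 members (Kif9 and Kif16b) had an unadjusted p under 0.05.

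**Figure D4:**
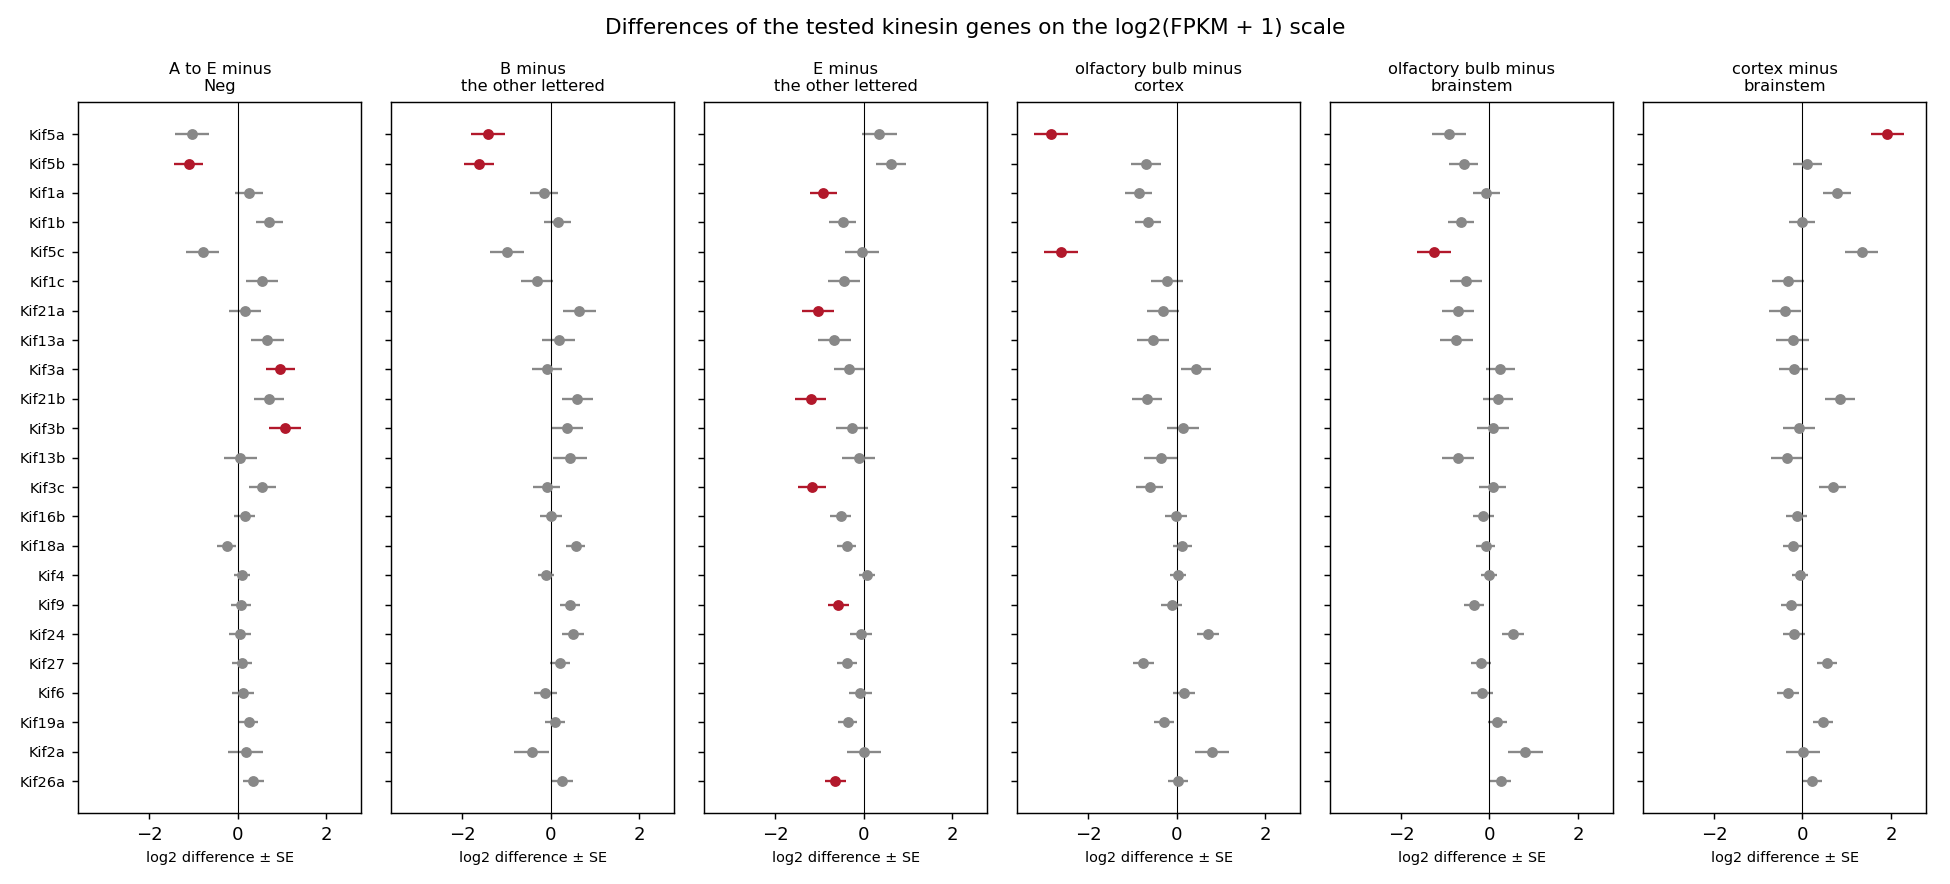
Log2 difference with its standard error for the 23 tested kinesin genes in 6 comparisons, on the log2(FPKM + 1) scale, with genes past an adjusted p of 0.05 in red and the others in grey. Kif5a and Kif5c stand out in the regional comparisons (-2.84 and -2.61 for olfactory bulb minus cortex), and Kif5a and Kif5b in B (-1.42 and -1.62).

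The mitotic kinesins were near 0 in every population and region. Of 11 genes, 8 stayed under 1 FPKM in all 36 libraries: Kif2c, a microtubule depolymerase of centromeres, Kif11, which pushes spindle poles apart, Kif14 and Kif20b of cytokinesis, Kif15, which backs up Kif11, Kif18b, which shortens astral microtubules, Kif20a of the midzone, and Kif22, a motor on chromosome arms. Kif20a was listed at 0 in all 36 libraries. Kif11 was listed at 0 in 19 libraries and was highest at 0.647 FPKM in olfactory bulb E replicate 2. Kif20b was at 0 in 20 and highest at 0.659 in the same library. Kif22 was at 0 in 27 and highest at 0.291 in olfactory bulb C replicate 1. Kif23, the central spindle motor, was at 0 in 26 and reached 1.00 FPKM once, in olfactory bulb A replicate 2.

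The other 2 passed the filter through single libraries. Kif18a, which aligns chromosomes, was at 3.97 FPKM in brainstem B replicate 2, 1.56 in cortex Neg replicate 2 and 1.17 in brainstem Neg replicate 2, with a median of 0.103 over all 36. Kif4, a chromosome-bound motor, was at 3.04 in olfactory bulb E replicate 2 and 1.36 in brainstem A replicate 2, with a median of 0.0852. On the deposited scale over all libraries neither was called in any comparison, and the nearest was Kif18a in B at 0.57 ± 0.22 (adjusted p = 0.0759), which passed with the numbering term, as Kif4 in E did without the libraries with few genes. Summed over the group, medians were 0.842 FPKM in Neg, 1.55 in A, 1.27 in B, 0.835 in C, 0.586 in D and 0 in E, and the ranges of all 6 populations overlapped. The other 9 members were not tested.

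Other cell cycle genes were also low in most libraries. Of 22 such genes 5 passed the filter, and the summed level of the list was 0 to 14.1 FPKM with a median of 6.56. The kinase gene Plk1 was at 0 in all 36 libraries, Cdk1 and Top2a never reached 1 FPKM, and the proliferation marker Mki67 did so in 3 libraries with a highest value of 1.63 FPKM. The cyclin genes Ccna2 and Ccnb1 and the ubiquitin-conjugating enzyme gene Ube2c reached 8.92, 5.78 and 5.05 FPKM, above any mitotic kinesin. They were at 0 in 21, 32 and 23 libraries. Pcna, the replication clamp, reached 1 FPKM in 27 libraries and was higher in C and lower in E, the only calls of this list.

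The ciliary kinesins were low and patchy. Kif9 reached 3.38 FPKM in cortex B replicate 2, Kif24, which acts at the mother centriole, 4.01 in olfactory bulb D replicate 2, Kif19a, which limits cilium length, 5.65 in cortex D replicate 1, and Kif27 and Kif7, linked to motile cilia and Hedgehog signalling, 3.30 and 1.76. Each was at 0 in 7 to 23 libraries, and so was Kif6. Of the 5 tested, Kif9 in E gave the only call outside the alternatives, and 32 of 45 alternatives lost it. Kif27 was nearest to a call, between olfactory bulb and cortex (-0.75 ± 0.23, adjusted p = 0.0652). By limma with the highest transcript only, Kif27 passed there (-0.80, adjusted p = 0.0375). Its difference was -0.86 without the 2 libraries that carry olfactory bulb genes and -0.95 without the 8 libraries with few genes. Ependymal markers summed to 0 to 28.6 FPKM. They were highest in brainstem C replicate 1, where the ciliary kinesins summed to 5.13 FPKM, and at 3.39 FPKM in brainstem D replicate 1, where the ciliary kinesins had their highest sum of 10.2 FPKM.

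Among the other kinesins, Kif2a, a microtubule depolymerase of growing neurites, stood alone as widely present. It was at 6.03, 10.4 and 13.0 FPKM (lowest, median and highest) in the lettered olfactory bulb libraries, 1.28, 5.30 and 16.6 in cortex and 0.032, 5.74 and 9.32 in brainstem. Its differences of 0.80 ± 0.39 and 0.81 ± 0.39 for olfactory bulb minus cortex and minus brainstem did not pass (adjusted p = 0.31 and 0.243). By limma with the highest transcript only, Kif2a passed for olfactory bulb minus brainstem (1.52, adjusted p = 0.0105). Kif26a and Kif26b, of an atypical family without motor activity, had medians of 0.308 and 0.0435 FPKM. Kif2b and Kif12 were listed at 0 in all 36 libraries.

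The deposited transcripts show which forms carried the transport genes. Kif5a came from 1 of its 2 listed transcripts, of 6311 bases, and the other was at 0 in all 36 libraries, while Kif5c has 1 listed transcript of 6840 bases. Kif1a came mostly from 1 of its 4 (mean 46.2 of 67.7 FPKM). For Kif1b, the full-length transcript of 10136 bases averaged 18.2 FPKM, and a pair of short ones that cover only the 3′ end of the gene averaged 13.1 and 11.5 FPKM. A Kif1b transcript of 7101 bases that covers the 5′ part was at 0 in 32 libraries. Short 3′ models may draw reads from the long one, so the sum over Kif1b transcripts is less certain than that of Kif5a.

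Partners of the kinesins were also measured. Among 22 light chain and cargo adaptor genes, 21 were tested. Klc1, the main neuronal light chain of kinesin-1, was at 1.23 to 35.0 FPKM with a median of 13.7, and Klc2 and Klc4 had medians of 1.63 and 0.385. Against Neg 6 of 21 were higher and 0 lower, among them Fez1, an adaptor of kinesin-1 (1.3 ± 0.41), Arl8a and Arl8b, which link kinesins to lysosomes (1.48 ± 0.37 and 1.35 ± 0.36), and Kif1bp, which binds kinesins (1.19 ± 0.38). Among all genes 20.2% were higher, and the median of 0.58 was near that of all genes, 0.50. In B, Trak2, an adaptor between motors and mitochondria, was lower by -1.39 ± 0.35 (adjusted p = 0.00707), and its relative Trak1 was not called. Ppfia2 was lower in B by -1.12 ± 0.35 and Klc4 higher by 0.79 ± 0.21. In E 12 of 21 were lower, where 42.5% of all genes were, with Mapk8ip3, a scaffold of axonal transport, at -1.47 ± 0.38. Directions in E are on the deposited scale, on which kinesin members also differed from the rescaled values. Between regions, Ppfia2 was higher in olfactory bulb than in brainstem by 1.65 ± 0.34, and Plekhm2, a lysosome adaptor, was lower in olfactory bulb than in cortex by -1.34 ± 0.38.

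Dynein and dynactin, which carry cargo the other way, had 22 of 23 genes tested. Against Neg 6 were higher and 0 lower, among them the motor subunit Dync1h1 (1.23 ± 0.30, adjusted p = 0.00691) and Dctn4 (1.44 ± 0.32), with a median of 0.86, beside 20.2% of all genes higher and a median of 0.50. In B 4 were higher (Dctn1, Dctn3, Dctn4 and Bicd2, from 0.94 to 2.09) and 0 lower, beside 15.4% of all genes higher. In E 12 were lower, beside 42.5% of all genes, among them Dctn3 (-2.23 ± 0.55) and Dctn2 (-2.06 ± 0.35). Between regions Dync1i1 was higher in olfactory bulb than in cortex (0.98 ± 0.27) and Dync1li2 lower in olfactory bulb than in brainstem (-1.51 ± 0.34). Of the 5 kinesins named otherwise, Kifc2 and Kifc3 were tested. Kifc3 was higher against Neg (1.19 ± 0.36), in B (1.14 ± 0.36) and in C (1.58 ± 0.36) and lower in E (-1.64 ± 0.36), and Kifc2, a neuronal motor, was lower in E (-1.08 ± 0.43) and higher in cortex than in brainstem (1.64 ± 0.43).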

How the data were processed

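RNA was measured in 36 libraries, numbered within a group in deposited order. The labels give the NuGEN Ovation V2 kit for cDNA, which does not mark strand, and an Illumina HiSeq. The submitters' processing notes name bcl2fastq 1.8.3, TopHat, Cufflinks and mm10, with no version of TopHat or Cufflinks in the sources used here. The authors deposited FPKM for 63241 transcripts per library, with coverage signal and an interval, per the file headers. The deposited coverage served only to read relative depth. A deposited FPKM is scaled by mapped fragments, so a few abundant transcripts lower all others, and without counts no count model was used.

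By position and without strand, transcripts were placed on GENCODE vM21 genes (overlap score of at least 0.5 with a lead of 0.1, or the sole protein-coding candidate). This placed 52543 transcripts (83.1%), holding 89.5% to 96.7% of each library's nuclear FPKM, and values were summed per gene. From the tests 4 genes with missing values were left out. limma 3.58.1 in R 4.3.3 was fitted to log2(FPKM + 1) of 13574 genes reaching 1 FPKM in 2 libraries, with 18 group means, a variance trend and 18 residual degrees of freedom. Tests were two-sided, adjusted by Benjamini-Hochberg over all genes tested and called at 0.05. A to E were set against Neg, each lettered population against the mean of the other 4, and regions in pairs over A to E, with F tests for any population difference and for its dependence on region. The Kif5a to Kif5b ratio was tested by permutation and chosen after the levels were seen. Alternatives were other scalings, pseudocounts, filters, transcript choice, library weights, a numbering term and left-out libraries.

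Named members are Kif5a, Kif5b, Kif5c, Kif1a, the mitotic genes, the 5 of highest mean and those called, and others were named after their values were seen. Members and lists were chosen with earlier results of these data known, and Kif1bp and Dynlt1a replaced newer symbols in the lists to match the annotation.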

Additional observations from a re-analysis of the deposited data

How the results depend on the processing

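No paired analysis was possible because the labels carry no replicate numbers. The calls of Kif5a and Kif5c between olfactory bulb and cortex (-3.11 to -2.57 and -2.84 to -2.37), of Kif5a between cortex and brainstem (1.65 to 2.19) and of Kif5b over the 6 populations were kept under 45 alternatives. Against Neg, 3 members were called, and 1 with the highest transcript only, 7 with array weights and 0 without the libraries under 5000 genes. In A, 1 (Kif14) was called with no filter, in place of 0. In B the numbering term gave 1 (Kif18a), which was neither of the 2 called otherwise. In D, 1 (Kif6) was called without the 2 libraries that carry olfactory bulb genes. In E, where 6 were called, quantile normalization gave 3, the numbering term 0, leaving out libraries under 5000 genes 1 (Kif4) and leaving out the 2 libraries 3 (Kif3c, Kif21b and Kif16b). Neither quantile normalization nor leaving out libraries under 5000 genes kept any of the 6. Olfactory bulb minus brainstem gave 0 with a pseudocount of 0.1, with the numbering term and without libraries under 5000 genes, and 2 without the 2 libraries. Cortex minus brainstem gave 2 after rescaling and under both of these removals. The F test over populations gave 1 without libraries under 5000 genes, and the one for dependence on region 1 with no filter. A count that stayed the same could hold other members. With the highest transcript only, olfactory bulb minus brainstem called Kif2a in place of Kif5c. In E that setting called Kif1b and Kif3a lower, but not Kif9 or Kif21b. The numbering term called Kif5a and Kif21b against Neg in place of Kif3a and Kif3b. The causes were not tested.

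Leaving out 1 library at a time gave 0 to 5 calls against Neg, 0 in A and C, 1 to 4 in B, 0 to 1 in D, 3 to 8 in E, 2 to 4 for olfactory bulb minus cortex, 0 to 1 for olfactory bulb minus brainstem, 1 to 3 for cortex minus brainstem, 2 to 6 over populations and 0 for dependence on region. Against Neg the count was 0 without either olfactory bulb Neg library, cortex Neg replicate 2 or brainstem Neg replicate 2. It was 3 in E without olfactory bulb E replicate 1, cortex E replicate 1 or brainstem E replicate 1. Without cortex D replicate 2, a library with few genes, it was 5 against Neg, 8 in E, 4 for olfactory bulb minus cortex and 3 for cortex minus brainstem. It was 2 for cortex minus brainstem without brainstem B replicate 2, brainstem D replicate 1, olfactory bulb E replicate 1, cortex E replicate 2 or brainstem E replicate 2. Over populations it was 2 without olfactory bulb B replicate 1 or cortex E replicate 2 and 6 without brainstem B replicate 1. In D it was 1 without brainstem D replicate 2.

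Signs turned for Kif1a in E (0.25 rescaled, 0.11 after quantile normalization). The Kif5a to Kif5b ratio against Neg was -0.35 without libraries under 5000 genes, and -0.13 to 0.33 with single libraries left out, turning to -0.05 and -0.13 without brainstem Neg replicates 1 and 2. In B it was -0.17 to 0.54, turning to -0.17 and -0.06 without cortex B replicates 1 and 2. None of these ratios had passed its test. Of the mitotic and ciliary values 6 of 396 and 30 of 216 reached 1 FPKM, and whether depth limits them was not tested.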
